A study of Mus musculus with 4 samples.

Results

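The genes described here encode the nuclear subunits of the mitochondrial respiratory chain and ATP synthase. They were found by symbol, as all genes whose names begin with Nduf, Uqcr, Atp5 or Cox and a digit, together with Sdha to Sdhd, Cyc1 and Cycs. The rule found 53 of the 4878 genes in the deposited table. By known role, 47 of them are subunits and 6 are assembly factors (Cox14, Cox16, Cox17, Ndufaf1, Ndufaf2 and Ndufaf7). The subunits comprise 24 of the 37 complex I genes on a role list, 3 of 4 for complex II, 6 of 9 for complex III, 4 of 18 for complex IV and 10 of 17 for ATP synthase. The role list counts tissue isoforms as separate genes. The remaining subunit genes, the cytochrome c gene Cycs among them, were not analysed here. The 53 genes lie on 19 chromosomes, with at most 5 on any of them.

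Complexes I and II take electrons from NADH and succinate and pass them to ubiquinone. Complex III moves them on to cytochrome c, and complex IV hands them to oxygen. Complexes I, III and IV pump protons out of the matrix, and ATP synthase lets the protons back in to make ATP. Mitochondrial DNA encodes some subunits of complexes I, III and IV and of ATP synthase, while the others, and all of complex II, are made from nuclear mRNAs on cytosolic ribosomes and imported. Several of the nuclear mRNAs are known for very short 5′ untranslated regions (5′ UTRs, the leader ahead of the main start codon).

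Ribosome profiling, which sequences the RNA fragments that ribosomes protect from RNase, was done on mouse embryonic fibroblasts at passages 5 to 8. Both groups were transfected with Lipofectamine RNAiMAX, 2 libraries with a negative control siRNA and 2 with the siRNA labelled Si-eIF1A (X+18). The target, eIF1A, is an initiation factor of the scanning ribosome that helps it select the start codon. No label gives the mouse strain. The eIF1A genes Eif1ax and Eif1a were not analysed here, so the knockdown was not checked in these libraries. No label states that the libraries came from separate cultures, so the p-values below measure the spread between libraries, which may be technical. Matched RNA-seq was not used here. A change in footprints may therefore be in the mRNA or in its translation, and in bulk cells fewer cells of a type and less RNA per cell cannot be told apart.

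Reads over the listed genes totalled 617663 and 547916 for the controls and 458191 and 280649 for knockdown libraries 1 and 2. The shallower knockdown library 2 held 189658 coding reads, against 366775 to 546123 in the other libraries. The median over tested members was 58.5 and 39 coding reads for the controls and 65.5 and 32 for the knockdown libraries. Of 12 fibroblast markers, 3 were listed (Vim, S100a4 and Fn1), and they did not move together. Their summed coding level, most of it Fn1, was 3854 and 5504 normalized reads in the controls and 3454 and 2871 in the knockdown libraries. Vim had 671 and 488 against 1227 and 455, with knockdown library 1 the highest, and S100a4 had 149.7 and 135 against 18.3 and 17.6. Of 27 markers of other cell types, 2 were listed, and both were lower in both knockdown libraries. The epithelial Dsp had 109 and 146 in the controls against 82.4 and 71.8, and the neuronal Map2 had 65.9 and 55.3 against 15.3 and 6.38. The part of these markers in the results below was not tested.

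Coding footprints of the respiratory chain were higher after the eIF1A siRNA in many members and lower by the test in none. A gene is said here to have risen where its limma adjusted p, over the 4619 genes whose coding reads averaged 10 or more normalized reads, was under 0.05. By that measure 19 of the 52 members tested rose (36.5%) and 0 fell, while 10.6% of all genes tested rose and 18.7% fell. The median change of the members was 0.64 on the log2 scale, against −0.16 for all genes. In 29 members both knockdown libraries lay above both controls (26.0% of all genes), in 3 both lay below (40.1% of all genes), and in 20 the groups overlapped. The changes are differences of log2(normalized reads + 1), which understate the change of genes with few reads, and the ± beside them is the standard error (n = 2 libraries in each group).

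The same shift was present in the recovered reads before any scaling between libraries. The members took 1.06% and 0.798% of all coding reads in control libraries 1 and 2, and 1.84% and 1.45% in knockdown libraries 1 and 2. Their 95% Wilson intervals, which cover counting error only, ran from 1.03% to 1.09%, 0.773% to 0.824%, 1.79% to 1.88% and 1.40% to 1.51%. Both knockdown libraries were therefore above both controls by more than counting error. Within each group library 1 was the higher one for most members: knockdown library 1 exceeded knockdown library 2 in 44 of 52 (70.5% of all genes), and control library 1 exceeded control library 2 in 39 (56.2% of all genes). The counts of risen members depended on single libraries, as did those of all genes. The members' median change was 0.80 without control library 1 and 0.63 without control library 2, against −0.11 and −0.21 in all genes. It was 0.50 without knockdown library 1 and 1.00 without knockdown library 2, against −0.32 and −0.007 in all genes. None of the 19 changed sign in any alternative analysis that gave it a value, 14 for 18 of them and 13 for Ndufaf2, which the filter at a mean of 20 left out.

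**Figure D1:**
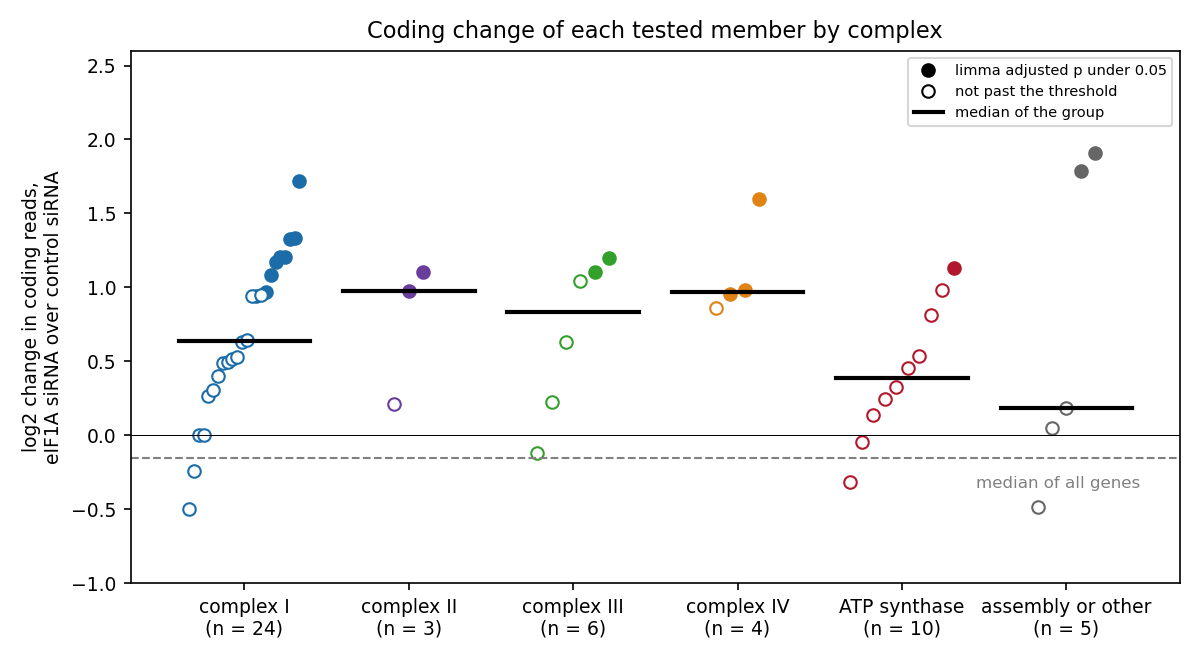
Log2 change in coding footprints (eIF1A siRNA minus control siRNA) for each of the 52 members tested, grouped by complex, with the median of all 4619 genes as a reference. Most points lie above that reference of −0.16, with medians of 0.64 for complex I, 0.97 for complexes II and IV, 0.84 for complex III and 0.39 for ATP synthase.

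In complex I, the NADH dehydrogenase, 9 of 24 subunits rose and none fell, with a median change of 0.64. Ndufb4, an accessory subunit of the membrane arm, had 12.9 and 12.1 normalized coding reads in the controls and 53.9 and 35.1 in the knockdown libraries. The groups were far apart, and its change of 1.72 ± 0.39 (limma adjusted p = 0.00456) was the largest of the complex. Ndufb7, also of the membrane arm, had 26.5 and 24.2 in the controls against 51.9 and 81.4 (1.33 ± 0.34, limma adjusted p = 0.00967). Ndufa12, an accessory subunit of the matrix arm, had 63.8 and 51.9 against 141 and 107 (1.08 ± 0.31, limma adjusted p = 0.0151). In both genes the lower knockdown library stood well above the higher control. Ndufa9, which lies near the ubiquinone site, had 54.5 and 25.9 against 104 and 75.0 (1.21 ± 0.37, limma adjusted p = 0.0219). Ndufc1, a small membrane subunit, had 12.9 and 19.9 against 32.5 and 43.1 (limma adjusted p = 0.0339). Ndufs4, whose loss causes complex I deficiency, had 19.3 and 11.2 against 43.7 and 28.7 (1.21 ± 0.42, limma adjusted p = 0.0385). The groups did not overlap in any of these 3, though the controls of Ndufa9 and Ndufs4 were themselves far apart.

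The other complex I subunits that rose were Ndufa3 (1.34), Ndufab1 (0.97), the acyl carrier protein, and Ndufa11 (0.94), with limma adjusted p = 0.0392, 0.049 and 0.044. By position, 5 of 12 membrane arm subunits rose (median 0.73), 3 of 11 matrix arm subunits (median 0.63), and Ndufab1, which sits in both arms. By role, 9 of 19 accessory subunits rose (median 0.94), and 0 of 5 core subunits, which carry the flavin, iron-sulfur clusters or quinone site (median 0.26). The difference between core and accessory subunits was not tested. Ndufs1, a core subunit that holds several of the iron-sulfur clusters, had 135 and 131 normalized coding reads in the controls and 108 and 117 in the knockdown libraries (−0.24 ± 0.28, limma adjusted p = 0.553). Both knockdown libraries of Ndufs1 lay below its controls. Ndufs8 and Ndufb11 were high in knockdown library 1 alone, at 103 and 65.1 against 22.3 and 11.2 in knockdown library 2, and neither passed the test.

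**Figure D2:**
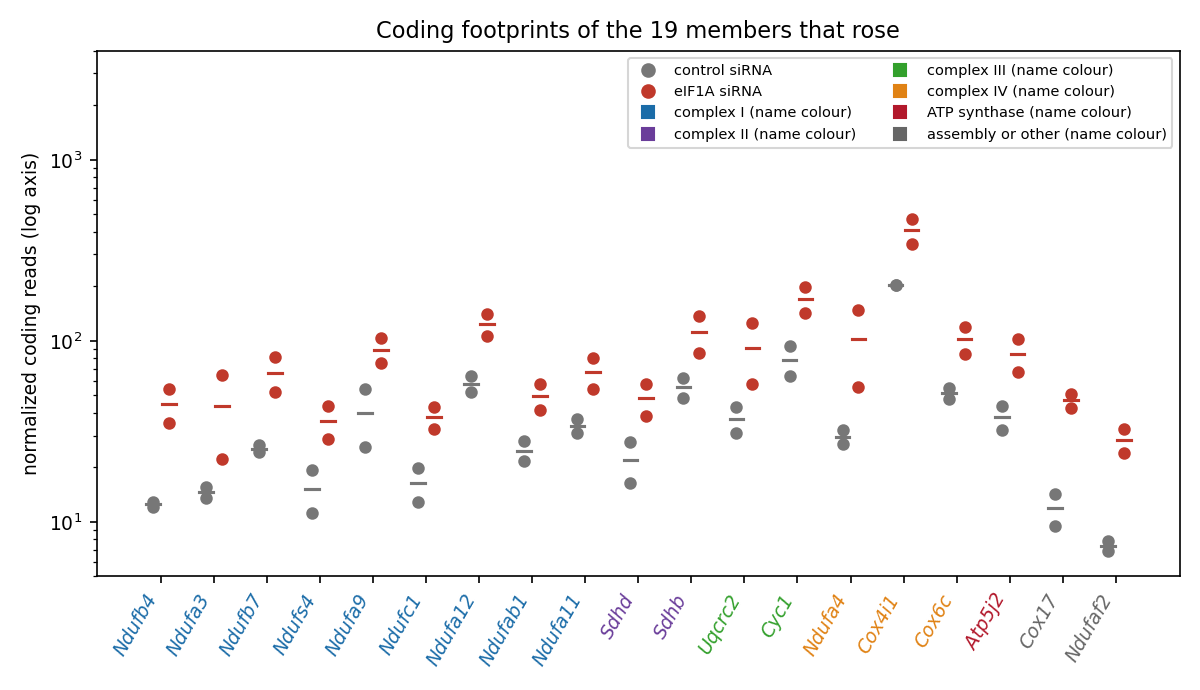
Normalized coding reads (log axis) of the 19 members that rose, in the 2 control libraries (grey points) and 2 knockdown libraries (red points), with the group mean as a short bar and name colours for the complex. In each gene both red points lie above both grey ones.

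Complex II, succinate dehydrogenase, is also an enzyme of the citric acid cycle. Of its 3 listed subunits 2 rose. Sdhd, a membrane anchor, had 16.5 and 27.7 normalized coding reads in the controls and 58.0 and 38.3 in the knockdown libraries (1.11 ± 0.38, limma adjusted p = 0.0392). Sdhb, the iron-sulfur subunit, had 62.3 and 48.4 against 137 and 86.2 (0.97 ± 0.32, limma adjusted p = 0.0338). Sdha, the flavoprotein that oxidises succinate, had 125 and 118 against 171 and 115 (0.21 ± 0.30, limma adjusted p = 0.633). The groups were separate for Sdhd and Sdhb and overlapped for Sdha, where knockdown library 2 lay below both controls.

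In complex III, the cytochrome bc1 complex, 2 of 6 subunits rose and in 5 of 6 both knockdown libraries were above both controls (median 0.84). Cyc1, cytochrome c1, had 93.1 and 64.0 normalized coding reads in the controls and 197 and 142 in the knockdown libraries (1.11 ± 0.31, limma adjusted p = 0.015). Uqcrc2, a core protein, had 43.0 and 31.1 against 126 and 57.5 (1.20 ± 0.37, limma adjusted p = 0.0254). Both were separate between groups, with knockdown library 1 the highest. Uqcr10, a small subunit, had 15.05 and 17.3 against 48.8 and 23.9 (1.04 ± 0.42, limma adjusted p = 0.0713). Uqcrfs1, the Rieske iron-sulfur protein, had 37.3 and 29.4 against 67.1 and 39.9 (0.63 ± 0.35, limma adjusted p = 0.19). These missed the threshold with groups that did not overlap. Uqcrh (43.7 and 48.4 against 57.0 and 51.1) changed by 0.23, and Uqcr11 (45.9 and 49.3 against 66.1 and 28.7) by −0.12, with overlapping libraries in Uqcr11.

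Of the complex IV subunits 4 were listed, and 3 rose. Cox4i1, the widely expressed isoform of subunit 4, had 204 normalized coding reads in each control and 345 and 472 in the knockdown libraries (0.98 ± 0.29, limma adjusted p = 0.0185). Its paired isoform Cox4i2 was not analysed here. Ndufa4, named for complex I but assigned to complex IV, had 32.2 and 26.8 against 148 and 55.9 (1.60 ± 0.40, limma adjusted p = 0.00768). Cox6c had 55.2 and 47.5 against 119 and 84.6 (0.96 ± 0.31, limma adjusted p = 0.0308). Cox7b had 48.0 and 42.4 against 109.8 and 62.2 (0.86 ± 0.34, limma adjusted p = 0.0659). All 4 had both knockdown libraries above both controls, and the pair differed most in Ndufa4. Reads shared with near-identical pseudogene copies cannot be assigned with certainty in genes of this kind.

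In ATP synthase 1 of 10 subunits rose, near the 10.6% of all genes, with a median change of 0.39. Atp5j2, a subunit of the membrane part, had 43.7 and 32.0 normalized coding reads in the controls and 103 and 67.0 in the knockdown libraries (1.13 ± 0.34, limma adjusted p = 0.0195). Atp5l, also of the membrane part, had 38.0 and 32.8 against 105 and 47.9 (0.99 ± 0.37, limma adjusted p = 0.0567). Atp5e, the small epsilon subunit of the F1 head, had 17.2 and 12.96 against 32.5 and 22.3 (0.81 ± 0.42, limma adjusted p = 0.152). In these 3 the groups did not overlap, and Atp5j2 alone passed. Atp5b, the catalytic beta subunit, had 1078 and 746 against 1754 and 862 (0.46 ± 0.36, limma adjusted p = 0.356). Atp5a1, the alpha subunit, had 444 and 294 against 519 and 353 (0.24 ± 0.31, limma adjusted p = 0.591). The groups overlapped in both, with knockdown library 2 between the controls. By part, 0 of 5 F1 head subunits rose (median 0.24), 0 of 3 peripheral stalk subunits (median 0.33) and 1 of 2 membrane subunits (median 1.06). Atp5f1 had 111 and 59.6 against 172 and 81.4 (0.53), and Atp5j had 63.8 and 64.0 against 63.1 and 41.5, a change of −0.31. No test of the difference between complexes was run. The ATP synthase median was −0.05 without knockdown library 1 and 0.94 without knockdown library 2. In complex I it was 0.59 and 0.99. The low ATP synthase median therefore depended on single libraries, and without knockdown library 2 it was close to that of complex I.

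Of the assembly factors 5 were tested and 2 rose. Cox17, which carries copper toward complex IV, had 14.3 and 9.51 normalized coding reads in the controls and 42.7 and 51.1 in the knockdown libraries (1.91 ± 0.39, limma adjusted p = 0.00232). Ndufaf2, a complex I assembly factor, had 7.88 and 6.91 against 32.5 and 23.9 (1.79 ± 0.47, limma adjusted p = 0.01). Both were separate between groups, and Ndufaf2 passed the filter only through the knockdown group. Ndufaf7 (−0.49), Ndufaf1 (0.19) and Cox14 (0.05) did not pass. Cox16 was below the filter with 2, 1, 5 and 4 coding reads.

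The leader gave another picture, and its values depend on how libraries are scaled. With the deposited scaling, 17 of the 23 members that averaged 10 or more normalized 5′ UTR reads rose and 0 fell, while 44.0% of all 2101 genes tested rose and 2.81% fell. Of these 23, 9 had a control mean under 10 and passed the filter only through the knockdown group, where they had to be high, and 6 of those 9 are among the 17 (Ndufa8, Ndufv1, Uqcrc2, Cox6c, Atp5a1 and Cox17). The counts therefore describe the members that passed and support nothing further. Among the other 14 members 11 rose. The median change was 1.45 in the members and 1.09 in all genes. The knockdown libraries were both above the controls in 21 of the 23 (67.4% of all genes) and both below in 0 (7.19% of all genes). Where libraries were scaled on the 5′ UTR reads themselves (trimmed mean of M values), the median of all genes moved from 1.09 to 0.03. With that scaling 5 of the 23 members rose and Ndufc2 fell. Over all genes 20.9% rose, and slightly more genes fell than rose, so a single fall among the members does not stand out. Leader changes are therefore best read against the shift of all genes.

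In ATP synthase all 6 subunits tested rose in the leader with the deposited scaling (44.0% of all genes), with a median of 1.63. With libraries scaled on leader reads 3 of the 6 rose (20.9% of all genes), with a median of 0.53. Atp5d, Atp5f1 and Atp5j did not pass with that scaling. With a library left out, the ATP synthase median in the leader ran from 1.32 to 2.08. Most of the 17 leader calls were lost without either control library, as were most calls over all genes. Atp5a1 had 0.717 and 1.73 normalized leader reads in the controls and 15.3 and 46.3 in the knockdown libraries (3.68 ± 0.74, limma adjusted p = 1.18e-05). These were 1 and 2 reads in the controls and 15 and 29 in the knockdown libraries. The ratio of the pooled reads was 23.3 (95% interval 7.46 to 117, counting error only). With 1 read less per value, since 1 read may stand for 0, it was 66.6 (11.3 to 2692), so the size of the rise is poorly fixed. Both knockdown libraries were far above both controls. Atp5e had 24.4 and 16.4 against 63.1 and 115 (2.04 ± 0.49, limma adjusted p = 0.000298). Atp5c1, the gamma subunit of the rotor, had 59.5 and 57.0 against 180.0 and 192 (1.66 ± 0.45, limma adjusted p = 0.00128). Atp5f1, of the peripheral stalk, had 27.2 and 22.5 against 50.9 and 117 (1.60 ± 0.49, limma adjusted p = 0.00445). In all 3 the groups were apart. Atp5d, the delta subunit, had 39.4 and 50.1 against 91.5 and 129 (1.27 ± 0.47, limma adjusted p = 0.0184). Atp5j had 34.4 and 36.3 against 44.7 and 142 (1.15 ± 0.48, limma adjusted p = 0.0373). The rise of Atp5j leaned on knockdown library 2, and without that library its call was lost.

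Among the other complexes, 5 of 8 tested complex I leaders rose with the deposited scaling (44.0% of all genes). With libraries scaled on leader reads 0 of the 8 rose and Ndufc2 fell, while 20.9% of all genes rose and slightly more fell. The same member counts came from quantile normalization and edgeR. Ndufv2, an iron-sulfur subunit, had 16.5 and 19.01 normalized leader reads in the controls and 43.7 and 87.8 in the knockdown libraries (1.75 ± 0.50, limma adjusted p = 0.00237). Ndufv1, which holds the flavin, had 8.60 and 6.91 against 22.4 and 38.3 (1.80 ± 0.56, limma adjusted p = 0.00527). Ndufa8 had 2.87 and 3.46 against 8.14 and 27.1 (1.95 ± 0.72, limma adjusted p = 0.0187). Every knockdown library of these genes was above every control. Ndufs1 had 20.8 and 13.8 against 32.5 and 59.1 (1.32 ± 0.52, limma adjusted p = 0.0261). Ndufb11 had 10.0 and 17.3 against 36.6 and 31.9 (1.31 ± 0.53, limma adjusted p = 0.032). Ndufs1 thus rose in the leader while its coding reads did not pass. Ndufc2, a membrane subunit, had 34.4 and 34.6 against 19.3 and 60.7, so that the knockdown libraries lay on opposite sides of the controls.

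In complex III the leader of Uqcrc2 rose, from 2.87 and 2.59 normalized reads in the controls to 14.2 and 22.3 (2.34 ± 0.71, limma adjusted p = 0.0041). In complex IV the leader of Ndufa4 had 32.2 and 20.7 against 137 and 236 (2.75 ± 0.47, limma adjusted p = 1.86e-07). Ndufa4 and Atp5a1 passed in all alternatives except, for Atp5a1, the filter at a mean of 20, which left it out. Cox6c had 8.60 and 5.19 against 10.2 and 44.7 (1.55 ± 0.60, limma adjusted p = 0.0234). Its rise came mostly from knockdown library 2, and its call was lost with libraries scaled on leader reads. Cox7b had 91.0 and 124 against 159 and 246 and did not pass (0.89, limma adjusted p = 0.0791). With the deposited scaling the 3 assembly factors tested rose as well (44.0% of all genes). With libraries scaled on leader reads 0 of the 3 rose (20.9% of all genes). Cox16 had 20.1 and 16.4 against 52.9 and 39.9 (1.29 ± 0.51, limma adjusted p = 0.0284). Cox17 had 5.02 and 6.91 against 13.2 and 23.9 (1.45 ± 0.63, limma adjusted p = 0.0454). Cox14 had 36.5 and 38.9 against 67.1 and 99.0 (1.09 ± 0.48, limma adjusted p = 0.0489). The groups were apart in each, and Cox14 lost its call in 11 alternatives. No complex II leader reached the filter.

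Leader and coding calls were set side by side. Among members that rose in the leader, 4 also rose in the coding sequence (Uqcrc2, Cox6c, Ndufa4 and Cox17) and 12 were tested there without passing. Of the 4, Uqcrc2, Cox6c and Cox17 passed the leader filter only through the knockdown group. The matching share over all genes was not computed, so whether this overlap is usual is not known. Leader against coding reads, as the log2 ratio within a library, was tested in 22 members. It rose in 1, Atp5a1 (3.44 ± 0.66, limma adjusted p = 7.67e-05), and fell in 0, while 19.4% of all 1907 genes rose and 0.0524% fell. Atp5a1 had 1 and 2 leader reads in the controls and passed the filter only through the knockdown group, and the filter at a mean of 20 left it out. The median change in ratio was 1.10 in the members and 1.23 in all genes. The knockdown libraries were both above the controls in 10 of the 22 (63.9% of all genes) and both below in 0 (1.52% of all genes). The call of Atp5a1 was lost without either control library, as were nearly all calls over all genes. The members' median change in ratio was then 1.03 without control library 1 and 1.18 without control library 2. In all genes it was 1.06 and 1.44.

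**Figure D3:**
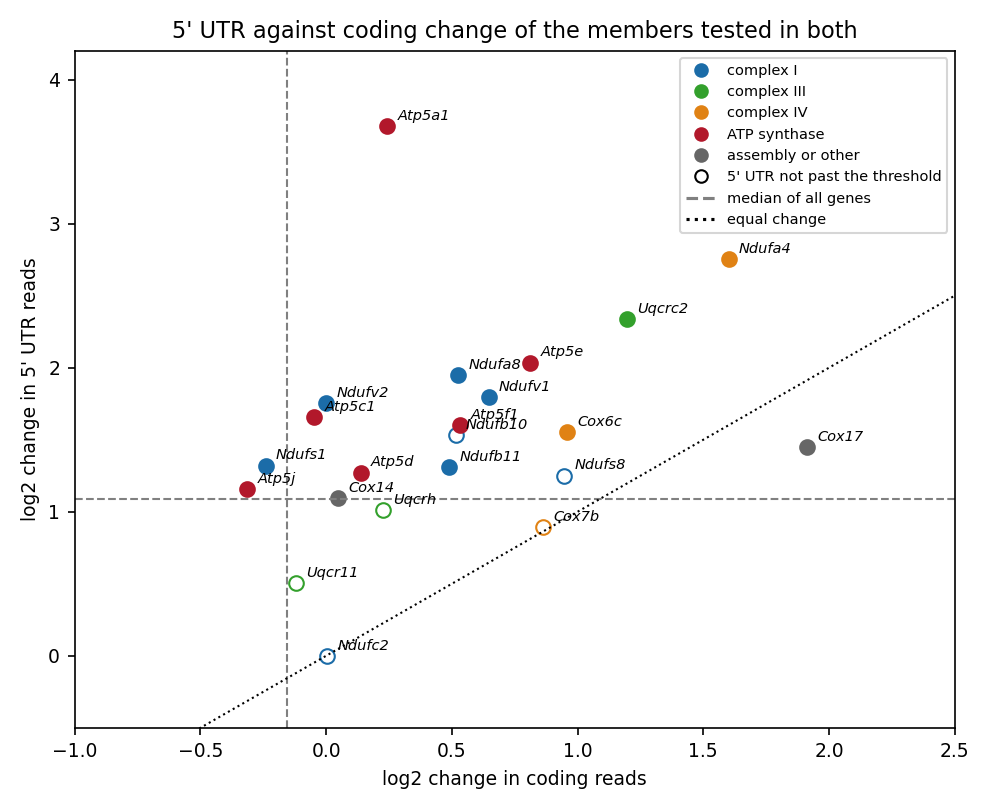
Log2 change in 5′ UTR reads (vertical axis) against log2 change in coding reads (horizontal axis), eIF1A siRNA minus control siRNA, for the 22 members tested in both regions. Atp5a1 lies highest at 3.68 with a coding change of 0.24, and Ndufa4 is high on both axes at 2.75 and 1.60.

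The pooled leader share differed between the knockdown libraries. In the members pooled, the leader held 11.6% and 14.9% of the reads in the controls, 14.9% in knockdown library 1 and 31.3% in knockdown library 2. In the genes outside the set it held 11.6% and 13.7%, then 20.04% and 32.4%. Knockdown library 1 was therefore above both controls in the other genes and level with control library 2 in the members. Complex I gave 9.30% and 11.2% in the controls, 10.2% in knockdown library 1 and 23.4% in knockdown library 2. ATP synthase gave 8.26% and 11.3%, then 12.5% and 31.6%, with both knockdown libraries above both controls. However, the intervals of knockdown library 1 (11.4% to 13.6%) and control library 2 (9.96% to 12.8%) overlapped. Atp5b alone held 1504 of 2921 and 863 of 1703 of its coding reads in the controls. In the knockdown libraries it held 1725 of 3120 and 540 of 1041. The leader of Atp5b was at 1 read in all libraries, so the pooled share depends largely on this gene. Without knockdown library 2 the members' median change in ratio was 0.14, against 0.76 in all genes, and the call of Atp5a1 was kept. Without knockdown library 1 the members' median change in ratio was 1.93, against 1.76 in all genes. Knockdown library 2 had the fewest coding reads, and the part of its depth in these values was not tested.

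**Figure D4:**
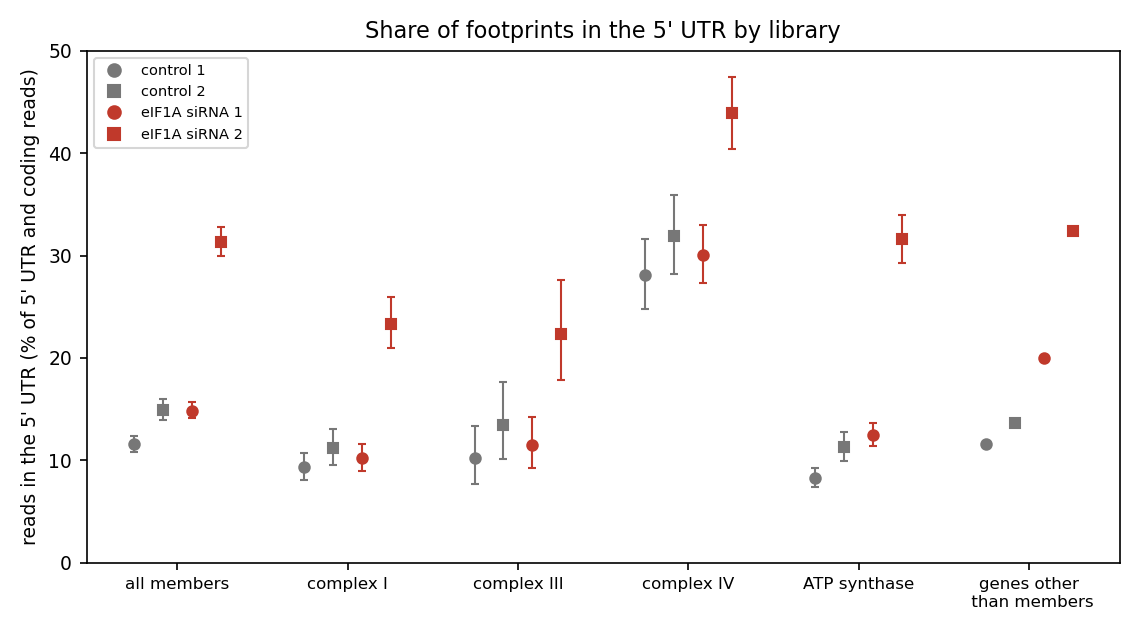
Percent of reads in the 5′ UTR, of reads in the 5′ UTR and coding sequence together, in each library for the complexes and for all other genes, with 95% Wilson intervals. The members stand at 14.9% in knockdown library 1, within the control range of 11.6% to 14.9%, and at 31.3% in knockdown library 2.

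Many members had almost no leader reads in any library. The lowest value in each column equals 1 read, which may stand for 0 or 1, and 19 of 53 members (35.8%) were at that value in all 4 libraries, against 17.6% of all genes. They were 11 of 24 in complex I, 2 of 3 in complex II, 2 of 6 in complex III, 0 of 4 in complex IV, 2 of 10 in ATP synthase and 2 of 6 assembly factors. Atp5b, with 746 to 1754 normalized coding reads, was one of them.

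RefSeq start-site windows (GRCm38.p6) were at hand for 44 of the members, 49 windows in all. The letters AAGATGG, which hold a start codon in part of a longer context known from very short leaders, were searched on the transcribed strand in the first 50 transcribed bases. This motif was chosen after the sequences and values had been seen, so it is a description. It was in 6 of the 49 windows (12.2%), in 2.96% of windows of all genes in the table and in 1.30% of all RefSeq windows. The longer form, in which AAGATGG is followed by CGGC, was in 2 of the 49 windows (4.08%, Ndufa9 and Ndufs4) and in 1.20% of the table's. The 6 stretches hold an ATG that begins within 42 bases of the annotated start. An ATG in the first 50 bases is common. It was in 21 of the 49 windows (42.9%), 29.4% of the table's and 44.3% of all RefSeq windows. Whether the ATG of the motif is the main start codon was not checked. Capitals mark the motif.
Atp5j2: accaggacttcAAGATGGcgtcactcgg
Ndufa3: ccgccaagaacAAGATGGccgggagtaa
Ndufa9: cattgtgggagAAGATGGcggccgccgt
Ndufb8: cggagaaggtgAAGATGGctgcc
Ndufc1: gcctgcggaacAAGATGGcgccgtccgt
Ndufs4: ttgcctacaggAAGATGGcggcggtc

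The stretches lie at chr5:145191502-145191529 (minus strand, Atp5j2), chr7:3617384-3617411 (plus strand, Ndufa3), chr6:126849099-126849126 (minus, Ndufa9), chr19:44555393-44555415 (minus, Ndufb8), chr3:51408917-51408944 (minus, Ndufc1) and chr13:114388045-114388070 (minus, Ndufs4). The A of the ATG was transcribed base 26 in Ndufa3 and Ndufc1, 27 in Atp5j2, 33 in Ndufa9, 39 in Ndufs4 and 42 in Ndufb8. Of these 6 genes 4 had leaders at 1 read in all libraries, as did 56% of the table's genes with the motif and 16.3% of those without it. In coding reads 5 of the 6 rose, all but Ndufb8, with a median of 1.19. Members with a window lacking the motif rose in 9 of 37 (median 0.53). Since the motif was chosen after these values were seen, the splits by motif, in leader and coding reads, support nothing further. Over the table, 29 of 149 genes with the motif rose (19.5%, median 0.07) and 365 of 3648 without it (10.0%, median −0.17).

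Promoter letters of factors known for respiratory genes were also counted, over all 300 bases of a window and both strands. An NRF1-type motif was in 10 of 49 member windows (20.4%), 11.9% of the table's and 4.603% of all. CCGGAAG, of the ETS type, was in 14 of 49 (28.6%), 20.5% and 8.86%. A match is a description of these letters and not of binding.

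Genes that work beside the chain were described from lists by role. Over all genes tested 10.6% rose and 18.7% fell in coding reads, with a median change of −0.16. The lists were not tested against these shares. Of 11 tested genes on a list of other assembly factors 3 rose and 0 fell. They were Slirp (2.07), Lrpprc (1.05) and the complex III assembly factor Uqcc2 (1.03), with limma adjusted p = 0.00112, 0.0117 and 0.0236. Slirp and Lrpprc are partners that stabilise mitochondrial mRNAs and are not assembly factors in the strict sense. Of 17 pyruvate dehydrogenase and citric acid cycle genes, citrate synthase Cs rose (1.39, limma adjusted p = 0.00758) and Idh2 fell by 1.81 on the log2 scale (limma adjusted p = 0.00245). Idh2 had 166 and 116 normalized coding reads in the controls and 59.0 and 25.5 in the knockdown libraries. Among 3 iron-sulfur cluster genes the chaperone Hspa9 rose (1.93, limma adjusted p = 0.000257), and among 5 regulators Pprc1 rose (1.12, limma adjusted p = 0.00978). None of 5 other electron donors passed (median −0.22), nor did the 1 ubiquinone synthesis gene tested. Of 7 genes listed as ATP synthase companions 0 passed (median 0.10). One of these, 1110004F10Rik, is not a known companion, and without it 0 of 6 passed and the median was −0.10.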

How the data were processed

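Ribosome profiling reads came from 4 libraries, 2 in each group. The submitters' processing notes name DESeq2, HTSeq, TopHat2, Bowtie and cutadapt and the build mm10, without versions or roles. Each deposited value is a signal, the normalized reads of a gene in its 5′ UTR or coding sequence, per the file headers. All values were whole multiples of 1 read within a tolerance of 0.001 reads, so whole reads were recovered for shares and count tests, and library totals are those of listed genes.

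Log2(value + 1) was tested in limma 3.58.1 (R 4.3.3; eBayes with trend, Benjamini-Hochberg over all genes, threshold 0.05, mean of at least 10). Alternatives used edgeR 4.0.16, DESeq2 1.42.0, other scalings, filters and pseudocounts, 1 read less per value, the replicate block, and each library left out. The procedure was tested on simulated data. With 2 against 2, an exact permutation test cannot go below 0.333. Symbols were matched to RefSeq (52 directly, Atp5f1 by an older name).

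The members and lists were chosen with earlier results of these data known. The list of ATP synthase companions was found, after its values had been computed, to hold 1 gene that does not belong. It was kept as first written and is also given without that gene. Named were all members past a threshold, with values by library for up to 6 members of each complex by adjusted p, the 2 with most coding reads, all of complex II and all risen leaders. A few other members were named after their values were seen. A gene that this rule takes is not reported here.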

Additional observations from a re-analysis of the deposited data

How the results depend on the processing

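The count of risen members in coding reads (19) was 29 with edgeR and between 14 and 25 in the other analyses that kept all libraries. Leaving out a library gave 0 to 30. The median change (0.64) was 0.93 with edgeR and with DESeq2, and 0.50 to 1.00 with a library left out. For the leader, the 17 calls became 6 with trimmed-mean scaling, with quantile normalization and with edgeR (5 higher and Ndufc2 lower in each), 2 with DESeq2 and 10 with a filter at a mean of 20. With a library left out they were 2 to 21. The leader change of Cox14 turned to −0.0068 with trimmed-mean scaling, −0.0055 with edgeR and −0.041 with DESeq2. For the ratio, the 1 call became 0 with trimmed-mean scaling, quantile normalization and the filter at 20, with 3 members at an unadjusted limma p under 0.05 in each, and 0 to 16 with a library left out. With trimmed-mean scaling and with quantile normalization no gene of the table rose in the ratio, so that loss was not particular to Atp5a1. The filter at 20 left Atp5a1 untested, while other genes still rose. DESeq2 was not run on the ratio. Where a control was left out, the lone control was assumed to vary like the other group. The causes were not tested. Calls over all genes changed with these settings as well, so the counts of members do not by themselves show a change particular to the members.

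With the replicate number as a block, 25 coding, 20 leader and 5 ratio members were called. Calls over all genes also became more frequent in each measure. In the ratio the share of all genes that rose was then larger than that of the members. Libraries sharing a number deviated together (correlation 0.261 across genes), but with 2 pairs and no label tying them they share only a number. Members with few reads limit the precision: the risen ones had 8 to 339 coding reads in a library.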
